A study of Drosophila melanogaster with 12 samples.

Results

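The replication-dependent histone genes His1, His2A, His2B, His3 and His4 were the 5 rows of type histone in each of the study's 2 tables of repeated sequences, out of 203 rows for H3K9me3 and 199 for H3K36me3. They were chosen by that type alone, and all 5 had a value in both tables and both treatments, with no filter on low values. Both histone marks were measured by ChIP-seq, the sequencing of DNA precipitated with an antibody to a chromatin mark. The cells were S2, a Drosophila melanogaster line derived from embryos. Cells of both groups received double-stranded RNA with the transfection reagent DOTAP for 5 days, directed against GFP as the control or against KDM4A, and no other allele or agent is named in the labels. The 12 libraries form 6 groups of 2 (each RNAi treatment with H3K9me3 ChIP, H3K36me3 ChIP and input), numbered 3 and 4 in every group, without saying whether the numbers mark separate cultures. Each table holds 1 mean per gene and treatment, so the differences below carry no error and no p-value, the depth is unknown, and "higher" and "lower" describe these means only. All rows analysed are repeats, so neither the level of KDM4A nor any marker of S2 cells was checked.

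The replication-dependent histone genes encode the linker histone H1 and the core histones H2A, H2B, H3 and H4, which package newly replicated DNA. They are transcribed in S phase, lack introns, and end in a stem-loop in place of a poly(A) tail. In Drosophila they lie in a tandem array on the left arm of the second chromosome and are transcribed in a nuclear structure called the histone locus body. H3K9me3 is a mark of heterochromatin, and H3K36me3 is laid down over the bodies of transcribed genes. KDM4A is a Jumonji-domain demethylase that acts on H3K36me3 and, in mammals, also on H3K9me3. Ribosomal DNA, the template of ribosomal RNA, is the other repeated gene cluster of the tables.

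The RefSeq gene table of a current fly assembly names 111 coding copies of the 5 genes, all on 1 chromosome arm. There are 23 copies each of His1, His2B and His3, 22 of His4 and 20 of His2A. The order repeats: each of the 23 His1 copies has His2B as the next coding copy, 20 of 23 His2B copies have His2A, 19 of 20 His2A copies have His4, all 22 His4 copies have His3, and 22 of 23 His3 copies lead back to His1. Between the first and last copy it also lists 20 copies of a small RNA gene and 4 histone pseudogenes, and no gene of another kind. Copies of 1 gene are nearly identical, so each row of the deposited tables stands for many copies, and the 5 rows are parts of 1 locus, not replicates. Which copies the authors mapped to, and how reads matching several copies were treated, is not given in the sources used here.

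All 5 histone genes had H3K9me3 enrichment values above 1, but lower than those of most repeats. The denominator of the enrichment is not given for either mark, so a value of 1 is not known to mark background. In GFP RNAi cells the mean enrichment (a linear ratio) was 1.749 at His2B, 1.705 at His2A, 1.698 at His3, 1.285 at His4 and 1.186 at His1. The median over all 203 rows was 2.323, and 172 rows were above 1. The histone genes thus took ranks 139, 141, 142, 163 and 169 from the top. His2A, His2B and His3, which encode core histones, lay within 1.03-fold of one another. His4, the fourth core histone gene, and His1, the linker histone gene, stood below these 3, with a gap of 1.32-fold between His3 and His4. Among all rows 20 had values inside that gap. By the mean of both treatments, the row just above the highest histone gene was HOBO, a DNA transposon (1.845 in GFP RNAi and 1.997 in KDM4A RNAi cells). The row just below the lowest was DM1731_LTR, a retrotransposon's terminal repeat (1.255 and 1.007).

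For H3K36me3 all 5 genes were below 1 and below the table's median of 0.898 in GFP RNAi cells. The mean enrichment was 0.881 at His1, 0.800 at His4, 0.735 at His2B, 0.690 at His2A and 0.680 at His3. These values ranked 104, 120, 131, 141 and 147 of 199, and 80 rows of the table were above 1. The highest gene was at 1.30-fold the lowest. The rows next to this range by mean level were BS2, a non-LTR retrotransposon (0.835 and 0.865), above His1, and NOMAD_LTR, the terminal repeat of an LTR retrotransposon (0.661 and 0.679), below His2A.

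**Figure D1:**
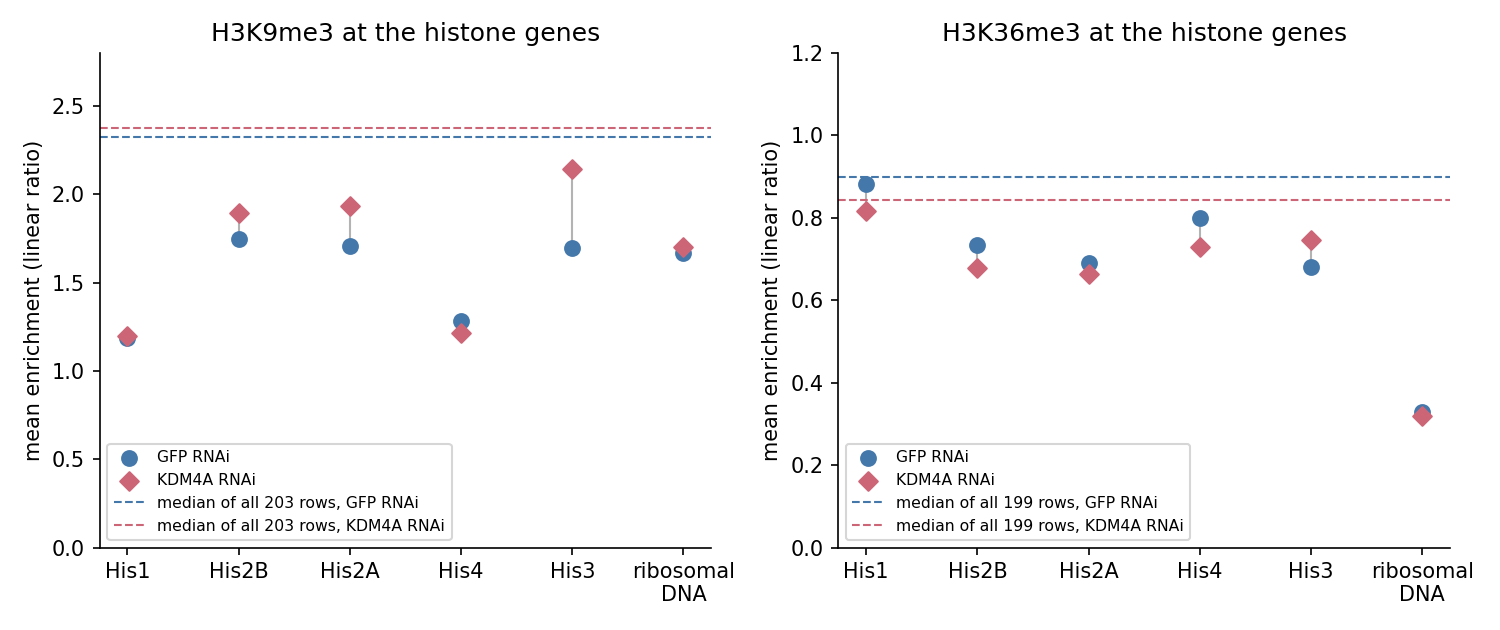
Mean enrichment (linear ratio, y axis from 0) of H3K9me3 (left) and H3K36me3 (right) at the 5 histone genes, in the order of the array, and at ribosomal DNA. Circles are GFP RNAi, diamonds KDM4A RNAi, 1 deposited mean each with no error; dashed lines are the medians of all rows. His1 and His4 have the least H3K9me3 of the 5 genes, and every histone gene lies above ribosomal DNA for H3K36me3.

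The 2 genes with the least H3K9me3, His1 and His4, had the most H3K36me3 in GFP RNAi cells. Among the 10 pairs of histone genes, 7 were ordered oppositely by the 2 marks and 3 alike, and the same numbers held in KDM4A RNAi cells. The share of oppositely ordered pairs over all rows was not computed, so the count is not shown to be particular to the array. The H3K36me3 values of His1 and His4 were at or above 0.800, and those of the 3 other genes at or below 0.735. In KDM4A RNAi cells that separation was gone for H3K36me3, with His4 at 0.730 and His3 at 0.746. For H3K9me3 it was wider, 1.56-fold, between His4 at 1.215 and His2B at 1.893. The 2 groups of genes were named after the values had been seen, and the rows share libraries and a locus, so the order is given as a description.

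All 5 genes were below the median of both marks, in both treatments. This was also the case for 31.2% of the rows present in both tables (62 of 199) in each treatment, the histone genes included. For H3K9me3 the 5 genes were above the telomeric retrotransposons, which ran from 0.774 to 0.939 in GFP RNAi cells. They were also above the median of the 14 tandem repeats (0.851), which ran from 0.172 to 8.19. They were below the medians of DNA transposons (2.094), LTR retrotransposons (2.383) and non-LTR retrotransposons (3.130). For H3K36me3 the telomeric rows, from 1.597 to 3.558, were above every histone gene. The median of the tandem repeats for this mark (0.1945, range 0.037 to 0.896) was below every histone gene.

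**Figure D2:**
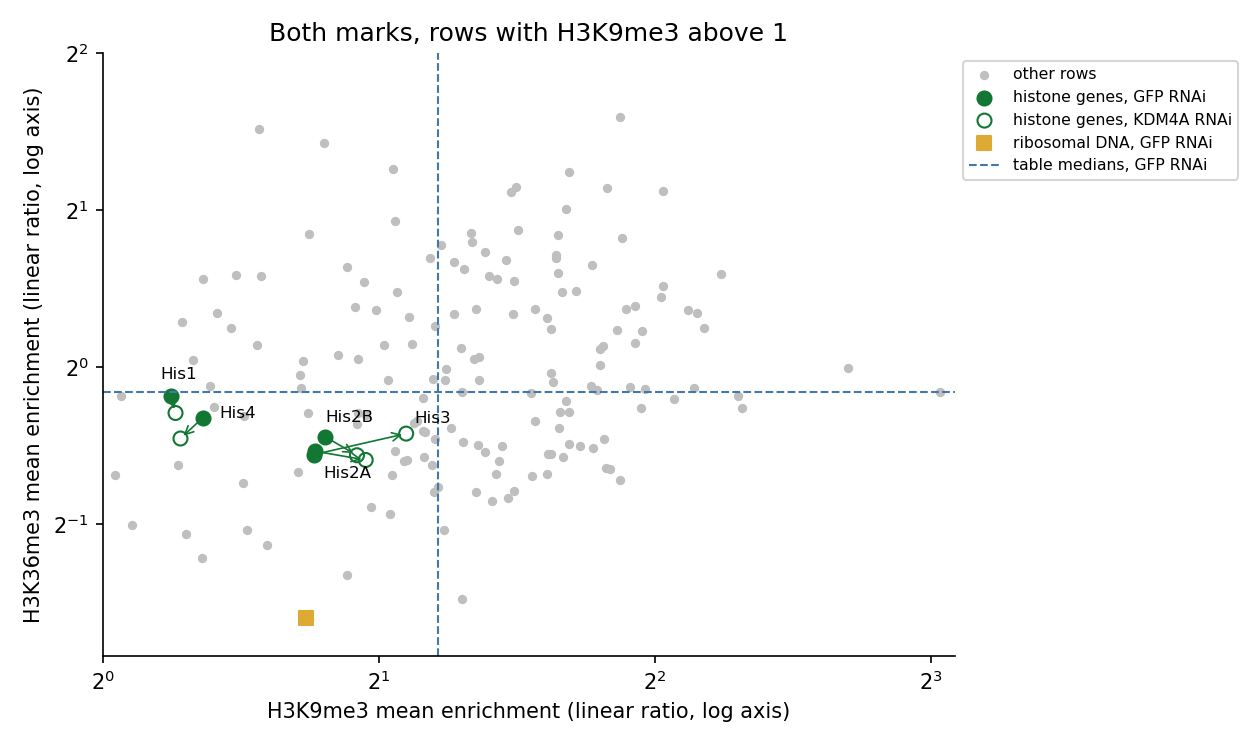
H3K36me3 against H3K9me3 mean enrichment (linear ratios, both axes log scaled). Shown are the 5 histone genes in GFP RNAi (filled) and KDM4A RNAi (open, joined by arrows), with ribosomal DNA and other rows in GFP RNAi cells. The axes hold 161 other rows and leave out those with H3K9me3 at or below 1 or with the lowest H3K36me3. The histone genes lie below and to the left of the dashed medians, in 2 sets: His1 and His4 at the left, and His2A, His2B and His3 nearer the H3K9me3 median.

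Ribosomal DNA differed from the array by mark. Its H3K9me3 was 1.667 in GFP RNAi cells, close to His3, His2A and His2B, which were 1.02-, 1.02- and 1.05-fold of it. His4 was at 0.771 and His1 at 0.711 of the ribosomal DNA value. For H3K36me3 ribosomal DNA was at 0.330, rank 188 of 199, and every histone gene was higher. His1 was 2.67-fold above it, His4 2.42-fold, His2B 2.23-fold, His2A 2.09-fold and His3 2.06-fold. Dividing a gene's H3K36me3 fold over ribosomal DNA by its H3K9me3 fold, which removes any scaling of whole columns, gave 3.75 for His1, 3.14 for His4, 2.12 for His2B, 2.04 for His2A and 2.02 for His3. In KDM4A RNAi cells this quotient was 3.62, 3.20, 1.91, 1.83 and 1.85 in the same order. It was therefore lower after KDM4A RNAi at 4 genes and higher at His4, and it was lower at 63.1% of the rows in both tables other than ribosomal DNA (125 of 198).

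The retrotransposons R1_DM and R2_DM, whose insertion sites lie in ribosomal RNA genes, exceeded every histone gene in H3K9me3, as did R1-2_DM, which is related to R1. They were at 3.570, 2.812 and 3.456 in GFP RNAi cells. For H3K36me3 in GFP RNAi cells R1_DM (0.638) and R2_DM (0.580) were below all 5 histone genes, and R1-2_DM (0.904) was above them. In KDM4A RNAi cells R1_DM (0.671) was above His2A (0.664).

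After KDM4A RNAi the mean H3K9me3 value was higher at 4 histone genes and lower at 1, and 64.5% of all rows were higher in the deposited values. His3 had the largest difference, from 1.698 to 2.142. His2A went from 1.705 to 1.935 and His2B from 1.749 to 1.893. His1 was nearly level at 1.186 and 1.2, and His4 was the lower one, at 1.285 and 1.215. The log2 ratios (KDM4A RNAi over GFP RNAi) were 0.34 for His3, 0.18 for His2A, 0.11 for His2B, 0.02 for His1 and -0.08 for His4. Their median was 0.11, beside 0.04 over all rows and 0.03 at ribosomal DNA (1.667 and 1.703). A constant factor between the columns moves all of these log2 ratios by the same amount. When each column was divided by its median, by its median without tandem repeats, by its sum or by ribosomal DNA, His1 turned lower (-0.03 to -0.01), and 3 genes were higher and 2 lower. Of all 203 rows 113, 100, 111 and 112 were then higher (55.7%, 49.3%, 54.7% and 55.2%), so the share of the genes lay near that of the table. The median of the 5 genes was 0.07 to 0.08 under these scalings, 0.07 with a pseudocount of 1, and 0.07 without His3 or without His2A.

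His3 was the only histone gene to differ by at least 1.2 times in H3K9me3, with the KDM4A RNAi value 1.26-fold the GFP RNAi value, and ranked 9 of 203 from the largest increase. Of all rows 4.93% (10) were higher by that much and 7.39% (15) lower. A change of 1.5 times, which 0.493% of rows showed upward and 2.46% downward, was seen at 0 histone genes. The log2 ratio of His3 was 0.30 relative to ribosomal DNA. In level it moved from rank 142 to rank 117, while His2A moved from 141 to 132 and His2B from 139 to 134. His4 ranked 158 from the largest increase, with a log2 ratio (-0.08) below the lower quartile of all rows (-0.05). Of the 32 other rows between the lowest and highest histone gene in mean level, 14 were higher and 18 were lower, and their median log2 ratio was -0.01. Since the deposited values are rounded to 3 decimals, a log2 ratio of a histone gene for this mark is uncertain by at most 0.0012 from rounding alone.

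**Figure D3:**
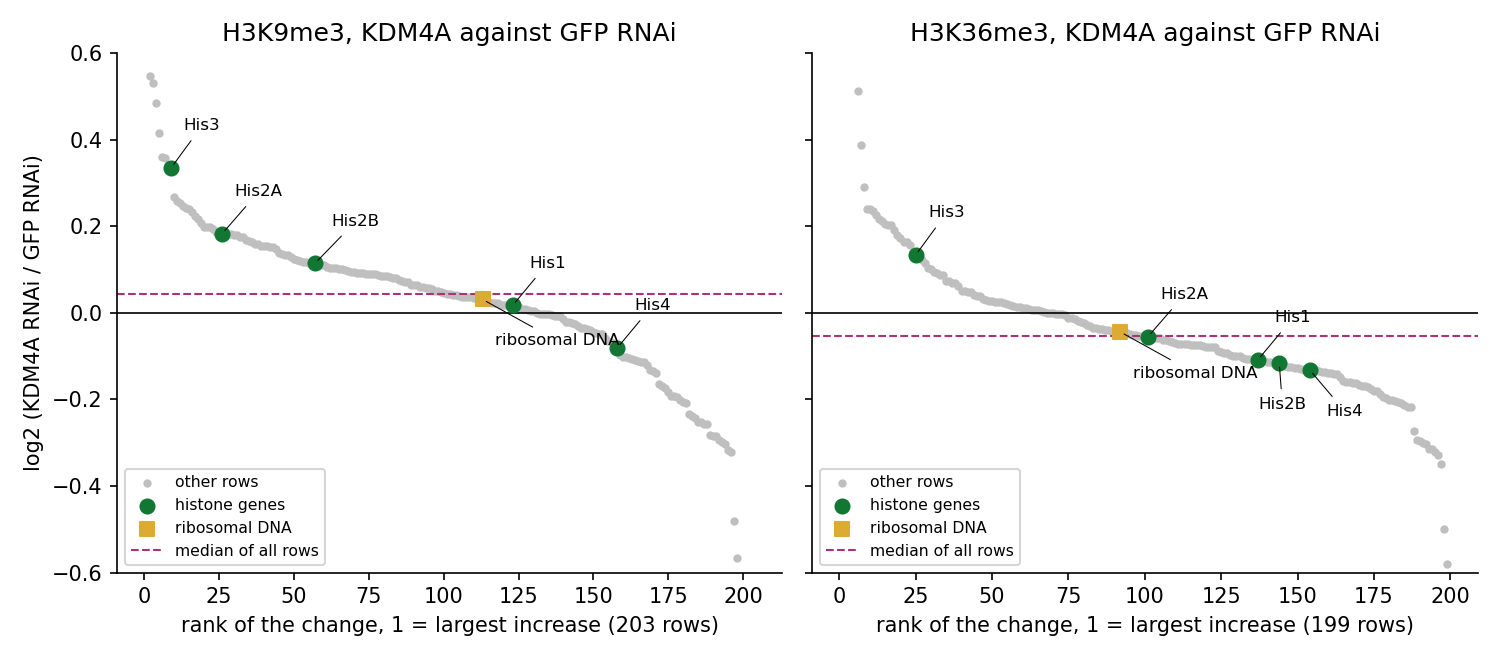
Log2 ratio of KDM4A RNAi over GFP RNAi (y axis) for all rows ranked from the largest increase (x axis), for H3K9me3 (left) and H3K36me3 (right), 1 point per row. Green points are the histone genes and the square is ribosomal DNA; 6 and 5 rows lie outside the axis of ±0.6. His3 is the highest and His4 the lowest histone gene in both panels.

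For H3K36me3 the KDM4A RNAi mean was lower at 4 histone genes and higher at 1, and 65.3% of all rows were lower in the deposited values. His1 was at 0.881 in GFP RNAi and 0.817 in KDM4A RNAi cells, His4 at 0.800 and 0.730, His2B at 0.735 and 0.678, and His2A at 0.690 and 0.664. His3 was the higher one, at 0.680 and 0.746, so the gene with the least H3K36me3 of the array in control cells had the second most in KDM4A RNAi cells. The log2 ratios were 0.13 for His3, -0.06 for His2A, -0.11 for His1, -0.12 for His2B and -0.13 for His4. Their median was -0.11, beside -0.05 over all rows and -0.04 at ribosomal DNA (0.330 and 0.320). This median moved by over 1.5 times under several settings: to -0.02 with columns divided by their median, to -0.06 with ribosomal DNA, to -0.07 with their sum and to -0.05 with a pseudocount of 1. None of the 5 reached a change of 1.2 times, which 4.02% of rows did upward and 6.03% downward; for 1.5 times the shares were 2.51% and 0%.

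His3 ranked 25 of 199 from the largest H3K36me3 increase, a direction shared by 33.7% of rows. The other 4 ranked 101 (His2A), 137 (His1), 144 (His2B) and 154 (His4). Division of each column by its median subtracts -0.089 from every log2 ratio of this mark and made His2A higher (0.03), so that 2 of 5 histone genes were higher beside 124 of all 199 rows (62.3%). That scaling turns the majority of the table, in which 67 rows were higher and 130 lower as deposited. With columns divided by ribosomal DNA, their sum or their median without tandem repeats, only His3 of the 5 was higher, beside 91, 84 and 74 of all rows. Of the 32 other rows in the H3K36me3 level range of the array, 7 were higher and 25 were lower, and their median was -0.06.

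His3 and His4, which are neighbours in the array, were at the opposite ends of the 5 genes in both marks. The difference of their log2 ratios was 0.42 for H3K9me3 and 0.27 for H3K36me3, and such a difference between genes is the same under every scaling of columns. The 2 parts of an LTR retrotransposon, the internal part and its terminal repeat, are 2 rows named for 1 element. Their difference gives a rough measure of how far such rows differ. Which copies each of these rows covers is not given, so they need not lie side by side as the histone genes do. In 51 such elements the median difference was 0.14 for H3K9me3 and 0.09 for H3K36me3. The His3 and His4 pair is named for its size, as the largest of the 10 pairs in both marks, so its place among single elements is a description and no test. Its difference was exceeded in 4 of 51 elements for H3K9me3 and in 9 of 51 for H3K36me3. Both marks may share the same input libraries, since the labels list no separate inputs per antibody. The values of the 2 marks are therefore given side by side only.

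His2A and His2B, also neighbours, lay close to each other. Their log2 ratios differed by 0.07 for H3K9me3, which 39 of 51 elements exceeded, and by 0.06 for H3K36me3, which 35 exceeded. Their levels in GFP RNAi cells differed by 1.03-fold for H3K9me3 and 1.07-fold for H3K36me3. Of the 10 pairs of histone genes, 7 differed by more than the median of the elements for H3K9me3 and 4 for H3K36me3. All 4 of the latter pairs include His3. His2A and His4, neighbours as well, lay farther apart: their H3K9me3 log2 ratios differed by 0.26, which 10 of 51 elements exceeded, and their levels in GFP RNAi cells by 1.33-fold. For H3K36me3 their log2 ratios differed by 0.08, which 30 elements exceeded. The neighbours His1 and His2B differed by 0.10 for H3K9me3 and by 0.01 for H3K36me3 in their log2 ratios. However, His2B had 1.47-fold the H3K9me3 level of His1 in GFP RNAi cells. The remaining neighbours, His1 and His3, differed in their log2 ratios by 0.32 for H3K9me3 and by 0.24 for H3K36me3. For each mark 9 of 51 elements exceeded that difference.

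**Figure D4:**
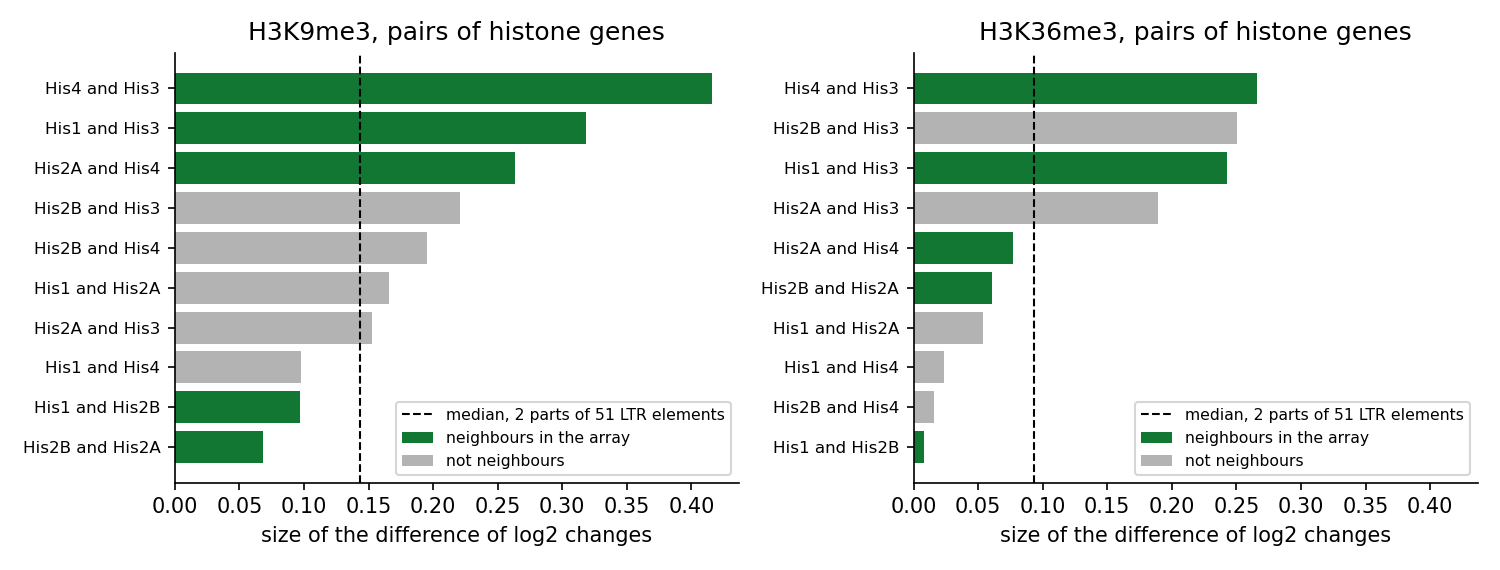
Size of the difference between the log2 changes of each pair of histone genes (x axis from 0) for H3K9me3 (left) and H3K36me3 (right), with neighbours in the array in green. The dashed line is the median difference between the 2 parts of 51 LTR elements, 0.14 and 0.09; His3 and His4 form the longest bar in both panels, 0.42 and 0.27.

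By the range from the lowest to the highest histone gene, H3K9me3 values lay farther apart after KDM4A RNAi and H3K36me3 values closer together. Single pairs did not all do so: for H3K36me3 His2A and His3 lay farther apart, and for H3K9me3 His1 and His4 lay closer. The range over other sets of rows was not computed. The highest H3K9me3 value was 1.47-fold the lowest in GFP RNAi cells (His2B and His1) and 1.79-fold in KDM4A RNAi cells (His3 and His1). In log2 units the range went from 0.56 to 0.84, a difference of 0.28, which was 0.13 without His3. For H3K36me3 the highest was 1.30-fold the lowest in GFP RNAi cells (His1 and His3) and 1.23-fold in KDM4A RNAi cells (His1 and His2A). That range went from 0.37 to 0.30 in log2 units.

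Over the 4 columns (2 marks in 2 treatments), the row most like the median of the array was POGO, a DNA transposon, at a Euclidean distance of 0.18 log2 units. It was at 1.895 and 1.848 for H3K9me3 and at 0.778 and 0.724 for H3K36me3. The next 4 were BURDOCK_I (0.24), INVADER1_LTR (0.29), GYPSY11_I (0.36) and ACCORD_I (0.38), parts of LTR retrotransposons. The array's own 5 genes define that median, so their distances from it are partly fixed by construction and are a description only. Among them His2B was at 0.11, His2A at 0.17 and His3 at 0.21. His4 was at 0.77 and His1 at 0.89, farther than 27 and 41 of the 194 rows of other types. Ribosomal DNA was at 1.67, farther than 119 of them. With the mean of the 5 genes in place of the median, 2 of these 5 rows, POGO and BURDOCK_I, stayed among the nearest 5. With the GFP RNAi columns only 4 stayed, and with columns scaled to their standard deviation 5 stayed. The likeness covers only 4 means, and the 2 marks may share input libraries.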

How the data were processed

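Per the file headers, the authors deposited for each antibody a table of linear enrichment ratios, 1 mean per row and RNAi treatment, to 3 decimals. The submitters' processing notes name Bowtie and MACS2. Not given in the sources used here are their roles, the genome build, the repeat library, the denominator, the depth scaling and the libraries in each mean. Reads that match many copies of a repeated gene could change its level. Per the labels, crosslinking took 10 min in 1% paraformaldehyde, shearing 30 cycles of sonication, and each precipitation 5 µg of antibody.

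Log2 ratios of KDM4A RNAi to GFP RNAi means were computed with no pseudocount (Python 3.11.15, pandas 2.3.3, numpy 2.4.6), after the code was checked on simulated data. With a single mean per treatment the planned limma fit was not possible. Rows were matched between tables by name, without the words added to tandem repeats. Gene order came from the RefSeq table of assembly Release 6 plus ISO1 MT, used for names and neighbours only. The named rows were the 5 histone genes, ribosomal DNA, its insertion elements, the 5 most like rows and the rows next in level. Members and lists were chosen with earlier results of these data known. The level of KDM4A was not measured.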

Additional observations from a re-analysis of the deposited data

How the results depend on the processing

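No paired analysis was possible because values of single libraries were not analysed here, so no replicate could be left out either. Without replicates any change of value is given as such, and its cause was not tested beyond what a setting does by construction. The depth is unknown. The median H3K9me3 log2 ratio of the 5 genes (0.114) was 0.074 with a pseudocount of 1, and 0.083, 0.069, 0.083 and 0.082 with columns divided by their median, their median without tandem repeats, ribosomal DNA and their sum. As a ratio of sums it was 0.137. It was 0.148, 0.10, 0.066, 0.148 and 0.066 without His1, His2B, His2A, His4 and His3. That of H3K36me3 (-0.109) was -0.048 with the pseudocount, -0.019, -0.104, -0.064 and -0.072 under the 4 scalings, -0.056 as a mean and -0.059 as a ratio of sums. It was -0.086, -0.082 and -0.082 without His1, His2B and His4. All these kept their direction. Of 50 values of single genes 5 changed direction: H3K9me3 at His1 (-0.014, -0.028, -0.014 and -0.015 under the 4 scalings) and H3K36me3 at His2A (0.034 when divided by the median, which made 2 genes higher in place of 1). At a minimum change of 1.2 times H3K9me3 had 1 gene higher and 0 lower and H3K36me3 had 0 in either direction; at 1.5 times all 4 counts were 0. The level relative to ribosomal DNA (log2 0.111 for H3K9me3 and 1.133 for H3K36me3 from the mean of both treatments) was 0.027 and 1.155 in GFP RNAi, and 0.153 and 1.190 in KDM4A RNAi cells; as a linear difference it was 0.135 and 0.388. The difference in range over the genes (0.275 for H3K9me3) was 0.373, 0.312 and 0.129 without His1, His2B and His3. For H3K36me3 (-0.074) it was -0.105 and -0.053 without His2A and His3. Leaving genes out of the range was chosen after seeing the data. Of the 5 rows most like the array, 2 remained with the mean of the genes. With the GFP RNAi columns only 4 remained, and with columns scaled to their standard deviation 5 remained.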
